A study of Phaseolus vulgaris with 2 samples.

Results

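PGSIP1 (Phvul.009G148800) and PGSIP3 (Phvul.001G021800) are the common bean genes that the study pairs with Arabidopsis glycosyltransferases adding glucuronic acid branches to xylan, and they are 2 of the 27197 genes of the deposited expression table. They were selected from genes called by the study as higher under drought in these same libraries, so the change of each between control and drought is given as a description and was not tested. The libraries come from aerial tissue of wild type plants of the cultivar Pinto Saltillo (PS), a drought-tolerant bean. Control plants were kept under irrigation, and drought plants went 2 weeks without watering from an age of 45 days, both on Hoagland's solution in vermiculite. Each pool held 6 to 9 plants, RNA was combined by condition, and the table gives 1 value per gene and condition, so that no difference has a replicate check.

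Xylan is the main hemicellulose of the secondary walls that dicot plants lay down in xylem vessels and fibres. Its backbone is a chain of xylose units made in the Golgi apparatus, and it carries side branches of glucuronic acid, part of them methylated, besides acetyl groups. In Arabidopsis, PGSIP1 and PGSIP3, also named GUX1 and GUX2, add these branches, and stems that lack both enzymes have almost no glucuronic acid on their xylan. The name, plant glycogenin-like starch initiation protein, comes from a likeness to the glycogenin of animals. Secondary walls hold cellulose and lignin besides xylan, and their genes are switched on together by NAC and MYB transcription factors in Arabidopsis.

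PGSIP1 lies on chromosome 9 from 21756649 to 21762903 and PGSIP3 on chromosome 1 from 1884320 to 1888744, in the coordinates of the table. Neither locus overlaps another gene of the table. PGSIP1 had 0.187 FPKM in the control library and 1.98 FPKM in the drought library, where FPKM is the number of sequenced fragments relative to transcript length and library size. PGSIP3 had 0.175 FPKM in the control against 1.39 FPKM in the drought library. Thus both genes were below 1 FPKM in control and above it in drought, and PGSIP1 was the higher of the pair in each library. Set against each other on the FPKM scale, PGSIP3 stood at 0.935 of the level of PGSIP1 in control and at 0.703 in drought.

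After 1 was added to each FPKM, the ratio of drought to control, given as a log2 ratio, was 1.33 for PGSIP1 and 1.02 for PGSIP3, equal to 2.51-fold and 2.03-fold on that scale. The added 1 is larger than the control value of either gene, and it understates their change. Without it, drought exceeded control 10.6-fold for PGSIP1 and 7.95-fold for PGSIP3. Both genes passed a limit of 2-fold on the FPKM + 1 scale. Of the 19661 genes that reached 1 FPKM in the control or the drought library, 11.7% passed it as higher in drought and 6.6% as lower. PGSIP1 and PGSIP3 entered this set only through drought. Over all 27197 genes, 8.49% passed as higher and 4.77% as lower. PGSIP3 was just above this limit, and with each library scaled to the same sum of FPKM its log2 ratio was 0.91, below it. Neither gene reached 4-fold higher, as 2.48% of the 19661 genes did.

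Even in drought, both genes were among the weakly expressed ones. In the control library 77.9% of all genes had a higher FPKM than PGSIP1 and 78.2% a higher FPKM than PGSIP3, and in the drought library 64.1% and 67.6%. By log2 ratio, PGSIP1 ranked 1414 and PGSIP3 ranked 2237 among the 19661 genes. Both entered that set only through drought, as 1615 of its genes did, so these ranks support nothing. The table holds no read counts per gene, so the counting error of these low values is unknown. Of the 1685 genes with FPKM from 0.1 to 0.3 in control, the range that holds the pair, 20.1% had at least 1 FPKM in drought and 13.3% at least the drought level of PGSIP3. In the other direction, of 1355 genes with FPKM from 0.1 to 0.3 in drought, 4.5% had at least 1 FPKM in control.

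The Gene Ontology (GO) column of the table gives PGSIP1 and PGSIP3 the same 11 terms. They include Golgi apparatus, starch metabolic process, secondary cell wall biogenesis, glucuronoxylan biosynthetic process, xylan biosynthetic process and glucuronoxylan glucuronosyltransferase activity. Phvul.002G270800 and Phvul.009G064700 carry exactly this set too, which makes 4 genes with it. The activity term itself is carried by 6 genes, the pair and these genes with Phvul.009G160700 and Phvul.002G281100. These other 4 genes have no symbol in the sources used here, and their likeness in sequence to the pair was not examined.

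Within these 6 genes, PGSIP1 and PGSIP3 had the lowest control levels and the highest log2 ratios. Phvul.009G160700 was the most abundant, at 23.5 FPKM in the control against 18.5 FPKM in the drought library, with a log2 ratio of −0.33. Phvul.002G281100 had 2.28 FPKM in the control against 3.33 FPKM in the drought library, with a log2 ratio of 0.40. Phvul.009G064700 had nearly the same level in each library, 0.713 FPKM in the control against 0.757 FPKM in the drought library. Phvul.002G270800, whose locus spans only 666 bases, had 2.07 FPKM in the control against 1.08 FPKM in the drought library, which gave the lowest log2 ratio of the term at −0.56. The pair alone passed 2-fold, PGSIP1 alone when both libraries were scaled to the same sum, and the other 4 genes stayed within it in either direction. Since the pair was chosen for being called higher in these libraries and the other 4 genes were not, this contrast is no independent evidence. Summed over the 6 genes, FPKM was 29.0 in control and 27.0 in drought. PGSIP1 and PGSIP3 made up 1.25% of that sum in control and 12.4% in drought, and in drought PGSIP1 ranked 3 and PGSIP3 ranked 4 in level among the 6.

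**Figure D1:**
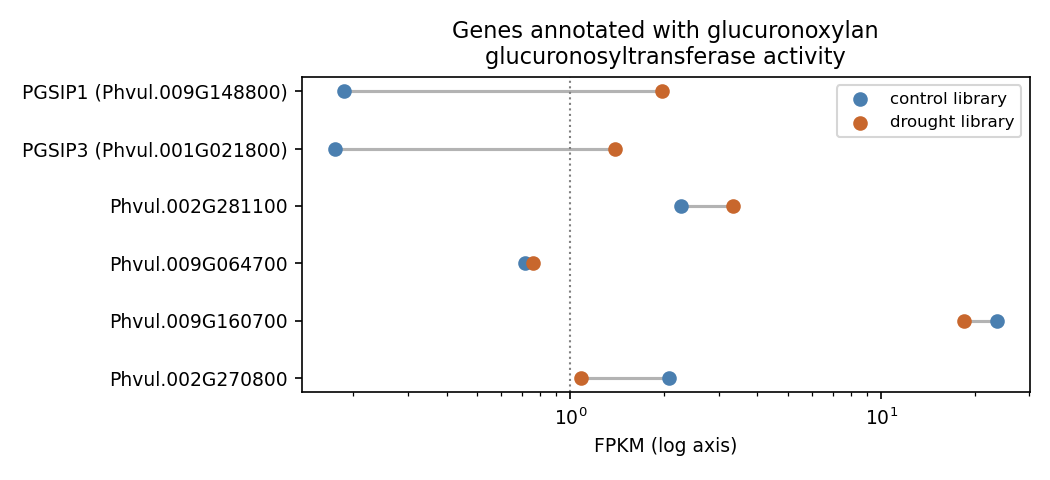
FPKM on a log axis in the control library (blue) and the drought library (orange) for the 6 genes annotated with glucuronoxylan glucuronosyltransferase activity, 1 library per condition, with a dotted line at 1 FPKM. PGSIP1 and PGSIP3 move from 0.187 and 0.175 FPKM to 1.98 and 1.39 FPKM, while Phvul.009G160700 holds the highest level in each library.

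Glucuronoxylan biosynthetic process, the wider term for making this polymer, is carried by 19 genes, of which 16 were higher in drought and 3 lower. At least 2-fold higher were 8 of the 19, or 42.1%, where the share over all 27197 genes is 8.49%. None was 2-fold lower, where the share over all genes is 4.77%. With 1 added, a gene below 1 FPKM in control cannot be 2-fold lower. This applies to 10 of the 19 genes and to 9151 of all 27197, so nothing is read from that difference. Without PGSIP1 and PGSIP3, chosen because they were called higher, 6 of 17 were at least 2-fold higher, or 35.3%. By log2 ratio with 1 added, PGSIP1 was number 7 and PGSIP3 number 8 of the 19, after PARVUS, GAUT12, GATL2 and 3 genes without a symbol. This order depends on the added 1, without which PARVUS rose by a smaller factor than PGSIP1. The genes that passed 2-fold all had low control levels: 12 genes were below 2 FPKM in control, and all 8 are among them. The other 7 genes, from 2.07 to 23.5 FPKM in control, had log2 ratios from −0.56 to 0.48. This limit of 2 FPKM was set after the values were seen, and genes with low FPKM carry the larger relative counting error.

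**Figure D2:**
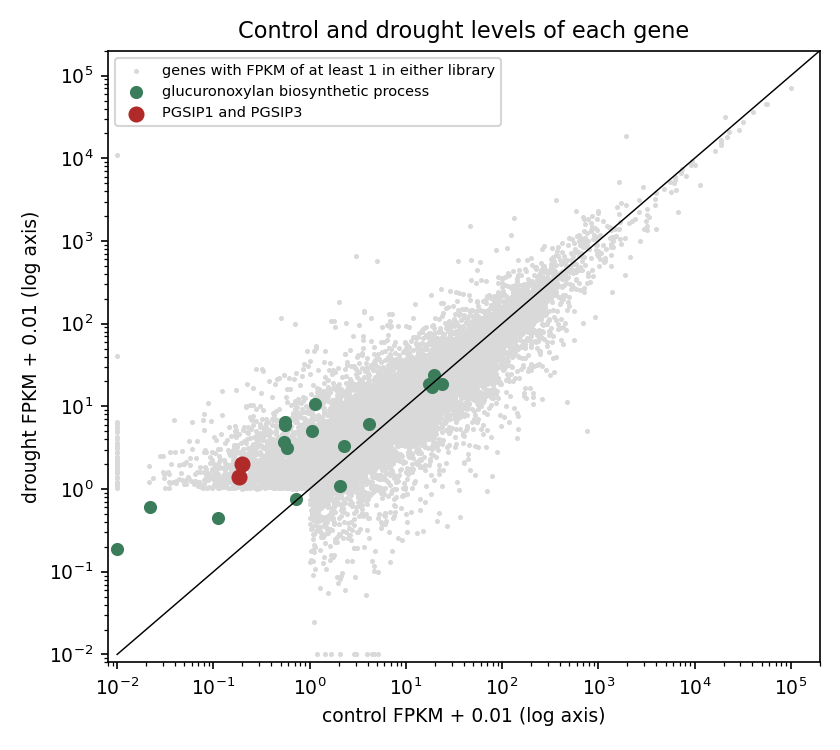
Control FPKM (x axis) against drought FPKM (y axis), each with 0.01 added and on a log axis, for genes that reached 1 FPKM in at least 1 library (grey), the 19 genes of glucuronoxylan biosynthetic process (green) and PGSIP1 and PGSIP3 (red), with a line at equal levels. The pair lies above the line near the lower edge of the grey genes, and the green genes near 20 FPKM lie close to the line.

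Secondary cell wall biogenesis is carried by 78 genes, which are not all separate loci. Several lie close together on chromosome 11 between 6770829 and 7190436, the top-ranked Phvul.011G077700 among them, and some there have the same coordinates. In drought 67 of the 78 genes were higher and 9 lower, and 2 were listed at 0 in both libraries, while over all genes 47.2% were higher. At least 2-fold higher were 39 of the 78, or 50.0%, against 8.49% of all 27197 genes. None was 2-fold lower, against 4.77% of all genes. With 1 added, a gene below 1 FPKM in control cannot be 2-fold lower. That holds for 54 of the 78 genes and for 9151 of all 27197, so nothing is read from this difference. PGSIP1 ranked 29 and PGSIP3 ranked 38 of the 78 by log2 ratio, so both stood in the lower part of the 39 genes that passed 2-fold, PGSIP3 next to last. Without the pair, 37 of 76 genes passed, or 48.7%. By level, PGSIP1 ranked 41 in control and 43 in drought, and PGSIP3 ranked 43 and 48. In control 54 of the 78 genes were below 1 FPKM, as the pair was. Among the 23 genes with at least 1 FPKM in both libraries, 9 were at least 2-fold higher, or 39.1%, against 8.24% of all genes at that level.

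The top of the ranking was Phvul.011G077700, with 0.595 FPKM in the control against 22.0 FPKM in the drought library, with a log2 ratio of 3.85. The lowest was Phvul.005G044600, with 1.53 FPKM in the control against 0.286 FPKM in the drought library, with a log2 ratio of −0.97. Directly above PGSIP1 were Phvul.008G226700, Phvul.001G175200 and Phvul.002G240200, with log2 ratios from 1.35 to 1.40. Directly below it were Phvul.011G075400, Phvul.001G052300 and Phvul.011G031700, with log2 ratios from 1.15 to 1.30. PGSIP3 stood between Phvul.011G076900, at 1.05, and Phvul.005G022100, at 1.02. The neighbours of a rank can be at very different levels, since Phvul.005G022100 had 13.5 FPKM in the control against 28.5 FPKM in the drought library. With 1 library per condition no spread is known, and the order of neighbouring ranks cannot be told apart from error.

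**Figure D3:**
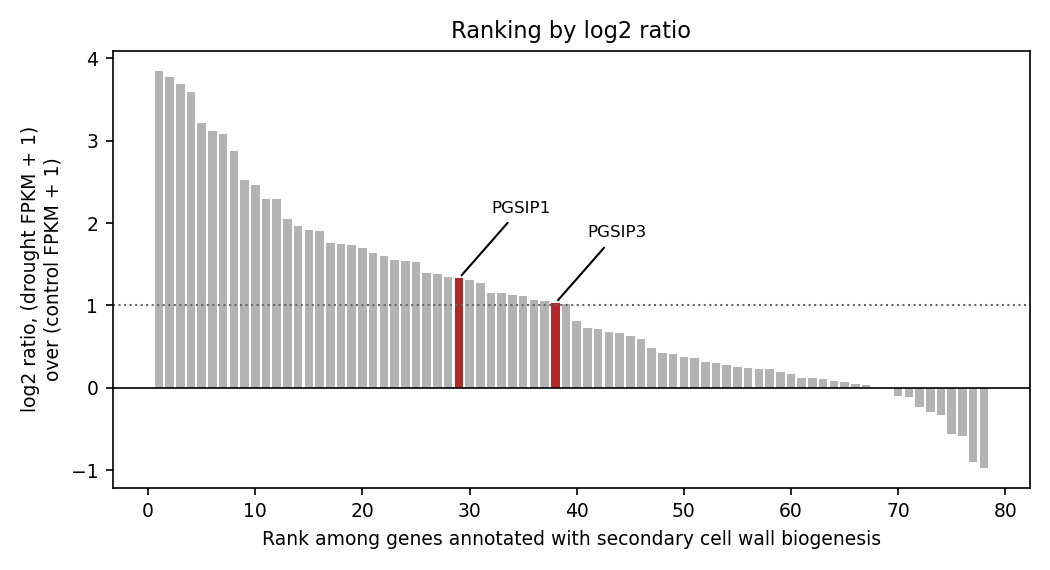
Log2 ratio of drought over control, with 1 added to each FPKM (y axis), for the 78 genes annotated with secondary cell wall biogenesis in order of rank (x axis), each bar 1 gene, with a dotted line at a log2 ratio of 1. PGSIP1 at rank 29 and PGSIP3 at rank 38 are red, and the last bar above the dotted line is rank 39.

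Other genes of xylan synthesis or hydrolysis were taken from the study's own list of cell wall genes higher under drought. It holds PGSIP1, PGSIP3 and 12 further xylan genes or likely ones, and since all 14 were called in these libraries, that each is higher is no independent evidence. PARVUS (Phvul.009G055600) and GAUT12 (Phvul.005G091200) are needed in Arabidopsis for the short sugar sequence at the reducing end of xylan. PARVUS had 1.12 FPKM in the control against 10.6 FPKM in the drought library. GAUT12 had 0.541 FPKM in the control against 6.54 FPKM in the drought library. The log2 ratios with 1 added were 2.46 and 2.29, both above those of the pair. Without the added 1, PARVUS rose by a smaller factor than PGSIP1, and GAUT12 still by a larger one. GXM3 (Phvul.005G001400), a methyltransferase for the glucuronic acid branches that PGSIP1 and PGSIP3 add, had 0.855 FPKM in the control against 7.15 FPKM in the drought library, with a log2 ratio of 2.14. In drought, this gene for modifying the branch was thus at a higher FPKM than the pair together, which summed to 3.37 FPKM.

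The GATL genes, related to PARVUS, ranged from 0.539 FPKM for GATL2 to 10.7 FPKM for GATL7 in control, and from 5.87 to 44.8 FPKM in drought. TBL33, TBL19, TBL37 and TBL39 belong to a family of polysaccharide O-acetyltransferases, and TBL33 acts on xylan in Arabidopsis. TBL33 had 0.840 FPKM in the control against 4.94 FPKM in the drought library, with a log2 ratio of 1.69, the lowest after the pair. BXL3 (Phvul.006G208200), described in the study's list as an enzyme that releases xylose from xylan, had the highest log2 ratio of the 14 genes, 3.72, with 1.63 FPKM in the control against 33.7 FPKM in the drought library. Of the 14 genes, 10 were at least 4-fold higher, where 2.48% of the 19661 genes were, and since the list was chosen for being higher, nothing is read from this count. With 1 added to each FPKM, PGSIP1 and PGSIP3 were last by log2 ratio. They were also last by drought level, and in control only BXL2, at 0.157 FPKM, was lower than the pair. The added 1 lowers the ratio most at low control levels, so this order of the 14 genes by log2 ratio holds on that scale only. Without it, drought exceeded control 10.6-fold for PGSIP1 and 7.95-fold for PGSIP3. TBL33, TBL19, TBL39 and GATL7 then rose by smaller factors than either. BXL2, BXL3, TBL37, GAUT12 and GATL2 rose by larger ones.

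Genes for other parts of the secondary wall on the same list were also higher. The cellulose synthase genes of secondary walls, CESA4, IRX1 and IRX3, had 1.07, 0.548 and 0.186 FPKM in control. In drought they had 18.1, 5.06 and 2.83 FPKM. IRX3 (Phvul.003G154600) was thus at the level of PGSIP1 in control and above it in drought, with a log2 ratio of 1.69. NST1 (Phvul.010G118700), a NAC transcription factor that turns on secondary wall genes in Arabidopsis fibres, had 1.12 FPKM in the control against 7.03 FPKM in the drought library, with a log2 ratio of 1.92. Over the 7 secondary wall genes of the list, including IRX6, IRX12 and WAT1, log2 ratios with 1 added ran from 1.69 to 3.21. On that scale each was above that of PGSIP1. Without the added 1, NST1, IRX1 and IRX12 rose by a smaller factor than PGSIP1, and the other genes of the list by a larger one.

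**Figure D4:**
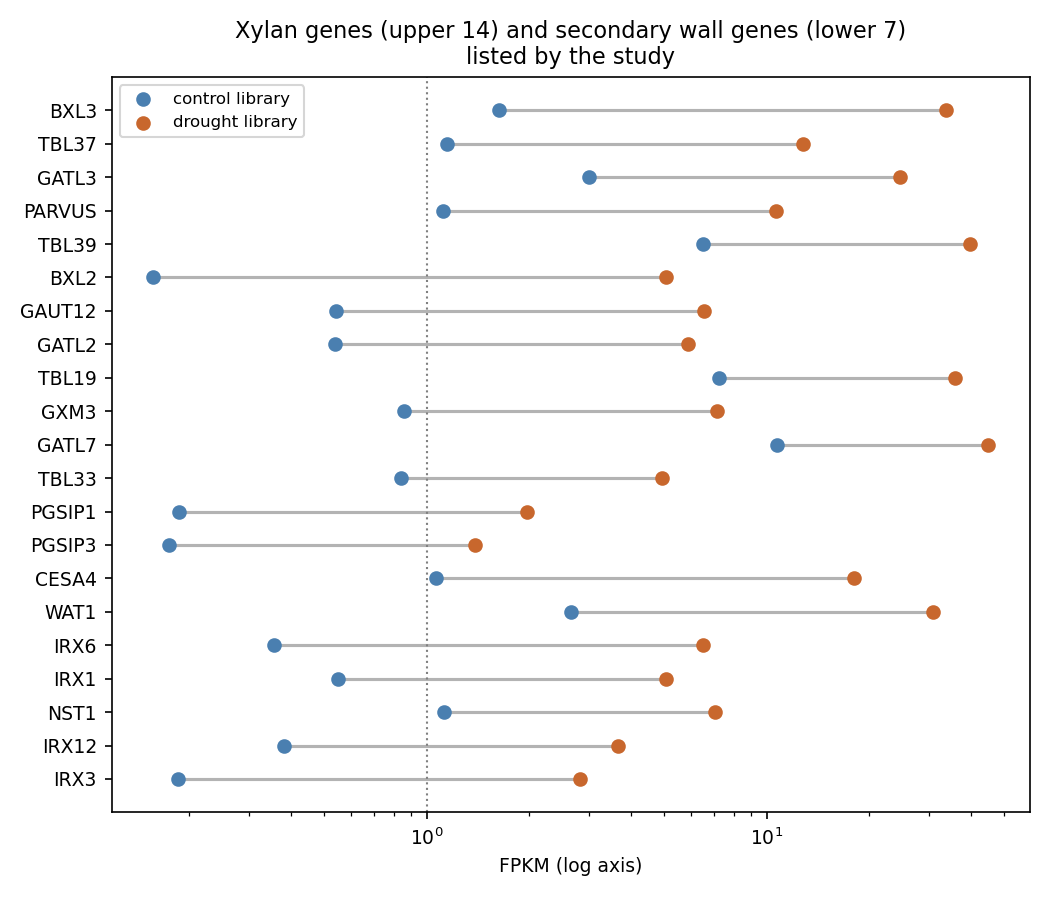
FPKM on a log axis in the control library (blue) and the drought library (orange) for the 14 xylan genes, upper, and the 7 secondary wall genes, lower, each set in order of log2 ratio, with a dotted line at 1 FPKM. Every gene was listed by the study as higher under drought, and PGSIP1 and PGSIP3 have the lowest drought levels shown.

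Markers of xylem on the study's list were also higher in drought. The 7 markers were XCP2, a protease of xylem vessels, ACL5, needed for xylem specification, CESA4, IRX1, IRX3, IRX12 and NST1, and 5 of them are also in the secondary wall list. All 7 were at least 2-fold higher, where 8.49% of all genes were, and none was at 0. Their summed FPKM was 7.23 in control and 61.45 in drought. These too come from the study's list of genes called in these libraries, so nothing is read from all 7 being higher. XCP2 (Phvul.009G008100) had 1.84 FPKM in the control against 12.0 FPKM in the drought library. ACL5 (Phvul.007G056100) had 2.08 FPKM in the control against 12.8 FPKM in the drought library. The part of the xylem markers in the result for PGSIP1 and PGSIP3 was not tested, and in a pool of aerial tissue more cells of a type and more RNA per cell cannot be told apart. The 149 genes of photosynthesis, which mark green tissue, reached a median of 68.7 FPKM in the control and of 75.3 FPKM in the drought library. Of these 149 genes, 108 were higher in drought, or 72.5% against 47.2% of all genes, their median log2 ratio was 0.30, and their summed FPKM was 35069 in control and 47616 in drought. Their part in the result was not tested either.

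The genes nearest to PGSIP1 and PGSIP3 were found by level alone. Nearness was the distance over log2(FPKM + 1) in control and drought, so it rests on 2 libraries. The 5 nearest to PGSIP1 were Phvul.011G130300, Phvul.005G174700, Phvul.008G209800, Phvul.002G294000 and Phvul.004G035200. They had from 0.177 to 0.192 FPKM in control and from 1.94 to 2.01 FPKM in drought. The 5 nearest to PGSIP3 were Phvul.004G018000, Phvul.003G233900, Phvul.011G139900, Phvul.009G231200 and Phvul.009G089800. None of these 10 genes carries the term secondary cell wall biogenesis, as only 0.287% of all genes do, and Phvul.002G294000 has no GO term at all. In all, 267 genes were nearer to PGSIP1 than PGSIP3 was.

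Among the other terms shared by the pair, some had a share of genes at least 2-fold higher above that of all genes and some had a share below it. Xylan biosynthetic process, carried by 269 genes, had 46 at least 2-fold higher, or 17.1%. At least 2-fold lower were 6, or 2.23%, against 4.77% of all genes. Of the 269 genes, 133 were below 1 FPKM in control and could not be 2-fold lower with 1 added, so nothing is read from this difference. Glucuronoxylan metabolic process, with 271 genes, had the same counts, or 17.0% higher. With at least 1 FPKM in both libraries the shares of these terms were 9.77% and 9.63%, against 8.24% of all genes at that level. Starch metabolic process, carried by 64 genes, had 12 at least 2-fold higher, or 18.8%, and 10 of 62 without PGSIP1 and PGSIP3. For glucuronosyltransferase activity, carried by 33 genes, 4 were at least 2-fold higher, and 3, or 9.09%, at least 2-fold lower. PGSIP1 and PGSIP3 are among those 4, and without them 2 of 31 were higher, or 6.45%, against the 8.49% of all genes. Transferase activity for glycosyl groups had 52 of 496 at least 2-fold higher, or 10.5%. Golgi apparatus had 91 of 1243, or 7.32%, and nucleus had 636 of 8424, or 7.55%. Biosynthetic process, with 160 genes, had 8 at least 2-fold higher, or 5.0%, and 8 at least 2-fold lower, also 5.0%.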

How the data were processed

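RNA from aerial tissue of PS was sequenced as 1 control and 1 drought library (the labels mention 2 libraries per treatment, the table gives 1 value). Per the labels and methods, reads were processed with CASAVA 1.8.2, Trimmomatic, FastQC, TopHat and the Cufflinks suite. The FPKM deposited by the authors come from Cuffdiff, without reads per gene, so the depth of each value is unknown and no interval was computed. The authors' fold changes, test statistics, p-values and q-values were not used. Whole reads could not be recovered from low FPKM.

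Ratios were computed with Python 3.11.15, pandas 2.3.3 and numpy 2.4.6. A run on simulated data checked the formula only on genes with control levels well above those of the pair, so it does not cover their ratios. With 1 library per condition no test was made. Genes below 1 FPKM in control could pass the filter of 1 FPKM only by being higher in drought, so lists are counted over all their genes. GO terms were present for 24570 genes, and 227 of these have a list ending at 1024 characters, where terms can be missing. Identifiers are of version 1.0 and the methods name version 2.1, so the build behind the coordinates is uncertain. Starts were raised by 1, since Cuffdiff counts a locus from 0. Sequences were not used here, and neither member matched the RefSeq gene table.

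The members and lists were chosen with earlier results of these data known. Genes named are the members, those of the study's list and of the glucuronosyltransferase term, the highest and lowest of a list, the 3 ranks on either side of a member and the 5 genes nearest by level. The counts from 0.1 to 0.3 FPKM were added after seeing the data. Alternatives were pseudocounts of 0.1, 0.01 and none, scaling by the 75th percentile or to a sum of 1000000, centring on the median, and other FPKM filters.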

Additional observations from a re-analysis of the deposited data

How the results depend on the processing

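The pseudocount moved the values of the pair most. With 0.1, 0.01 and no pseudocount, the log2 ratio of PGSIP1 was 2.86, 3.33 and 3.40, and that of PGSIP3 was 2.44, 2.92 and 2.99. Under the same settings the median over the genes of secondary cell wall biogenesis that reached 1 FPKM in the control or the drought library was 2.99, 3.29 and 3.21, against 1.35, and that of glucuronoxylan biosynthetic process was 2.18, 2.28 and 2.29, against 1.02. With a pseudocount, 55 and 15 genes were behind these medians. Without it, genes of secondary cell wall biogenesis at 0 in a library were left out too. Of the 55 and 15 genes, 31 and 6 passed the filter only through drought, so the medians support nothing. Over all genes of each term, with 1 added, they were 0.91 and 0.48. With any of these settings, 1 gene of secondary cell wall biogenesis was 2-fold lower, against 0. Scaling to a sum of 1000000 took PGSIP3 to 0.91, below 2-fold, and PGSIP1 to 1.19. The ranks of PGSIP1 ran from 27 to 36 and those of PGSIP3 from 32 to 44, where the lowest of each came without a pseudocount, over 63 genes. With FPKM of at least 1 required in both libraries, which leaves out the pair, the medians of these terms were 0.38 and 0.27. At that level 9 of 23 and 2 of 9 genes of the terms were 2-fold higher, or 39.1% and 22.2%, against 8.24% of all genes. With at least 5 in either library, which also leaves out the pair, 17 and 4 were 2-fold higher, and 1520 over all genes. Shares were not computed for this filter, so nothing is read from these counts. A changed gene number follows from the filter itself. Both members were higher in drought under every pseudocount and scaling tried. An equal number added to both libraries cannot change which is higher, and the pair was chosen as higher, so this supports nothing. The depth behind FPKM near 0.2 is not given in the table.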
